A study of Homo sapiens with 4 samples.

Results

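The long arm of human chromosome 19 carries a run of zinc finger genes at 19q13.11 to 19q13.12, and 32 of them are described here through the accessibility of their promoters. The members were taken by name, from ZNF302 at the centromeric end to ZNF573 at the telomeric end, and the list uses no measured value as a criterion. All 32 were among the 28775 promoters of the deposited table, and all 32 passed the filter on low counts, which 27647 promoters passed in total. The assay was ATAC-seq: the transposase Tn5 inserts sequencing adapters into DNA that nucleosomes leave exposed. To ask whether loss of MORC2 alters accessibility, 2 libraries of MORC2 knockout (KO) HEK293T cells were compared with 2 libraries of wild-type (WT) HEK293T cells.

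HEK293T is a human embryonic kidney line with an abnormal karyotype. No group received a treatment beyond the editing itself, and no time points were sampled. The KO cells were bulk pools, not clones, electroporated with Cas9 protein and a guide RNA against MORC2, with a different guide in each pool. Guide and KO replicate therefore cannot be separated, and a change in every cell of a pool cannot be told apart from a larger change in some of its cells. The WT replicates are described as independent. Whether WT cells were electroporated too is not given in the sources used here, so that editing and electroporation cannot be told apart.

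Most genes of this run encode C2H2 zinc finger proteins with a KRAB domain. The fingers read DNA, often within transposable elements, and the KRAB domain recruits TRIM28, which brings the H3K9 methyltransferase SETDB1 and HP1 proteins and so lays down H3K9me3. MORC2 is an ATPase that compacts chromatin and works with the HUSH complex, made of TASOR, MPHOSPH8 and PPHLN1, at H3K9me3-marked loci. Zinc finger genes of chromosome 19 are known as carriers of H3K9me3 over their 3′ exons in human cells, whereas their promoters are commonly open. ZNF146, ZNF260 and ZNF345 encode proteins of fingers without a KRAB domain, and ZNF781 is annotated as a transcribed pseudogene.

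Some members have overlapping or similar promoter windows, so the sequences are given before the values. RefSeq windows of 300 bases, running from 250 bases upstream of the start site to 50 bases downstream on GRCh38.p14, were found for 28 of the 32 members by gene identifier. ZNF30, ZNF571, ZFP14 and ZNF781 had no entry. The first set is the 250 bases upstream of ZNF181, ZNF302 and ZNF850, printed because ZNF181 was the only member called in the comparison of KO with WT, ZNF302 is its neighbour with a similar window, and ZNF850 came next by adjusted p. Capitals mark, on either strand, GGGCGG (the GC box, bound by SP factors), CCGGAAG (a core read by ETS factors) and TTCCCAG (part of the longer motif of ZNF143). Each runs 5′ to 3′ on the strand of its gene.
ZNF181, chr19:34733993-34734242, plus strand: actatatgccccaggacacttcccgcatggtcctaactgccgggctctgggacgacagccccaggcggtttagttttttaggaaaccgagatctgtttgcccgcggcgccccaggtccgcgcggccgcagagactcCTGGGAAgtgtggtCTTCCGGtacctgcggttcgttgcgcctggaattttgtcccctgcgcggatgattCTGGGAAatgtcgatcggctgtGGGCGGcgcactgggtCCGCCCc
ZNF302, chr19:34677428-34677677, plus strand: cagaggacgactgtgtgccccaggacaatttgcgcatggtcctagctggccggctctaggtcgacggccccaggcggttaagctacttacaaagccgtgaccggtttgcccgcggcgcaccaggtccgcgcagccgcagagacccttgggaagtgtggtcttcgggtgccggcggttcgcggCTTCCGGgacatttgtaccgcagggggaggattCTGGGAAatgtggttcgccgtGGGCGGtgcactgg
ZNF850, chr19:36772808-36773057, minus strand: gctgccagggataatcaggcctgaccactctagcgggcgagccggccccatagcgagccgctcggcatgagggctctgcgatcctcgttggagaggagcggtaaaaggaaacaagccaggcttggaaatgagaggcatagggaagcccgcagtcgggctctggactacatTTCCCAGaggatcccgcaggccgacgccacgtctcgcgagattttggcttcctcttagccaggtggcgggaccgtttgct

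ZNF302 and ZNF181 are transcribed from the same strand, and 78.3% of the letters of their 300-base windows were identical in a gapped global alignment. ZNF585A and ZNF585B, the other close paralogues of the run, were 78.7% identical. The next pair of members reached 66.3%, and the median over 372 pairs with windows that do not overlap was 57.0%. Read pairs that fitted both copies equally well would have been lost at the mapping quality filter the authors applied, so the counts of these 4 promoters rest on reads that told the copies apart.

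Head-to-head pairs are the second set. In 6 pairs of members the start sites lie back to back, so closely that the RefSeq windows overlap, by 121 to 196 bases. The stretch between the start sites is printed for 5 of them, and for ZNF569 and ZNF570, with 327 bases between starts, the part that both windows cover. Capitals mark the same motifs, and each is read on the plus strand.
ZNF565 and ZNF146, chr19:36215085-36215105, 21 bases: gggagtgcttcctcgctctcc
ZNF529 and ZNF382, chr19:36605258-36605312, 55 bases: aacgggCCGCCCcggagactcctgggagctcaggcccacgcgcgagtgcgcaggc
ZNF461 and ZNF567, chr19:36666838-36666933, 96 bases: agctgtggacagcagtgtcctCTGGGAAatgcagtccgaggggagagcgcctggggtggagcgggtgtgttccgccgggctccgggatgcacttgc
ZNF790 and ZNF345, chr19:36850793-36850875, 83 bases: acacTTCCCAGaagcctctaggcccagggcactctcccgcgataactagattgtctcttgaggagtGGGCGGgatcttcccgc
ZNF829 and ZNF568, chr19:36916292-36916331, 40 bases: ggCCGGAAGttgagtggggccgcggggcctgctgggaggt
ZNF569 and ZNF570, chr19:37467522-37467694, 173 bases: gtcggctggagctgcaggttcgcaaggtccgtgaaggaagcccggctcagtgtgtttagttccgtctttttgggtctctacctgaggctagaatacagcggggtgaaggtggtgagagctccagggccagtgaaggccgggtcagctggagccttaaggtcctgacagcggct

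These pairs held 4 of the 8 cases of near-identical rows, which differed by under 5% in every library. The counts of ZNF829 and ZNF568 were the same in every library, those of ZNF529 and ZNF382 differed by at most 0.453%, those of ZNF790 and ZNF345 by at most 1.34% and those of ZNF461 and ZNF567 by at most 1.57%. Each of these 4 pairs is thus 1 measurement under 2 names. ZNF569 and ZNF570 differed by up to 11.1% and were partly separate. ZNF565 and ZNF146 were the exception, since ZNF146 held 472 to 840 fragments and ZNF565 held 43 to 75, although their RefSeq starts lie 21 bases apart. Windows centred on those starts would have shared nearly all of their fragments, and the counts show that these rows did not.

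Some members shared a row with a gene that is not a member. ZNF302 differed by at most 1.29% from SCGB2B2, ZNF30 by at most 0.73% from its antisense transcript ZNF30-AS1, ZNF850 by at most 2.16% from LOC728485 and ZNF793 by at most 2.04% from ZNF793-AS1. An open promoter does not say which of the transcripts it serves. Looser likeness, within 25% in every library, linked ZNF302 with ZNF181, ZNF30 with ZNF792, ZNF382 with ZNF461 and ZNF567, ZNF527 with ZNF569 and ZNF570, ZNF565 with COX7A1, ZNF260 with ZNF529-AS1, ZNF585B with LINC01535 and ZNF540 with ZNF571-AS1. Promoters of like height reach this by level alone, as ZNF302 and ZNF181 do.

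By sequence these were CpG-rich promoters. The median window held 22.5 CpG dinucleotides, against 20.0 in 191 windows of other chromosome 19 zinc finger genes and 20.0 in all 19554 RefSeq windows. ZFP82 had the most, 37, and ZFP30 the fewest, 12. The median GC content was 61.3%, the same as over all windows. TATAAA, the TATA box, was found in 0 of 28 members, in 2.09% of the other chromosome 19 zinc finger windows and in 10.0% of all windows. GGGCGG was found in 10 of 28 members (35.7%), against 71.7% and 53.6%, and CCAAT, the CCAAT box bound by NF-Y, in 7 (25.0%), against 57.1% and 36.2%. CCGGAAG was found in 10 members (35.7%), against 46.1% of the other chromosome 19 zinc finger windows and 13.0% of all. TTCCCAG, added to the search after the sequences had been seen, was found in 12 members (42.9%), against 27.2% and 11.1%. AAGATGGC, a core of YY1, and GCATGCGC, a core of NRF1, were found in 3 members each, and CACGTG, the E-box, in 1. TGACGTCA, the cyclic AMP response element, and ACTACAA, the other part of the ZNF143 motif, had no exact match in these windows. In the windows of ZNF850 and ZNF573, actacat stands directly before TTCCCAG and differs from ACTACAA in its last letter. The windows of ZNF260, ZNF568 and ZNF569 hold the same stretch on the other strand, and that of ZNF345 has actacac before TTCCCAG. Both strands were searched, no motif contains another, and the letters alone do not show that a factor binds. Overlapping windows share their matches: counted once, the members were 22 loci, of which 8 held GGGCGG, 8 held CCGGAAG and 10 held TTCCCAG.

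The promoter counts of a library summed to between 9435801 and 15152636, of which mitochondrial rows took 20.6% to 35.1%. KO replicate 2 was the deepest library and had the smallest mitochondrial share. MORC2 itself, whose promoter does not read the edit, stood at 37.0 and 37.5 CPM in KO replicates 1 and 2 and at 25.7 and 29.6 CPM in WT replicates 1 and 2, where CPM is the count per 1000000 counts of the TMM-scaled library. Its log2 fold change was 0.43 with a standard error (SE) of 0.087 (edgeR quasi-likelihood F-test, adjusted p = 0.000279), and without KO replicate 2 the adjusted p was 0.0837. Of 7 embryonic kidney markers, 4 had a WT promoter level of at least 10 CPM, and PAX2, PAX8 and EYA1 did not. All 4 housekeeping promoters and all 3 neuronal-like ones did, as did 3 of 12 promoters of blood, liver, muscle and skin genes (CD68, APOA2 and CKM).

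In WT cells most of the members had a promoter level of at least 10 CPM, a cut that was not based on peak calls. The mean WT level was at least 10 CPM at 27 of 32 members (84.4%), against 57.3% of all tested promoters, 54.7% of the other promoters of the same interval and 62.6% of the other chromosome 19 zinc finger genes. The members' median was 17.4 CPM, with quartiles of 13.0 and 25.9, and the median of all tested promoters was 16.7 CPM. PAX2, PAX8 and EYA1 lay under the same cut and CD68, APOA2 and CKM above it, so it does not cleanly separate open from closed promoters. The authors describe a promoter as a window of fixed width around the start site, so levels of different genes are compared here per window.

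ZNF146, which encodes a protein made almost wholly of zinc fingers, was the most open at 49.0 and 54.1 CPM in WT replicates 1 and 2, higher than 85.6% of tested promoters. The bidirectional promoter of ZNF790 and ZNF345 came next. ZNF790 stood at 31.0 and 30.9 CPM in the WT libraries, and ZNF345 at 30.5 and 31.0 CPM. ZFP30, at 30.0 and 30.5 CPM, lay just under them.

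At the other end, 5 members were under 10 CPM. ZFP82 was the lowest at 2.18 and 2.77 CPM in WT replicates 1 and 2, and its RefSeq window had the most CpG dinucleotides. Whether the deposited rows use the RefSeq start sites is not known, and the rows of ZNF565 and ZNF146 did not match theirs. A low row therefore need not mean a closed RefSeq promoter. ZNF540 stood at 2.49 and 2.99 CPM and overlapped with ZFP82. ZNF781, the pseudogene, stood at 5.09 and 4.65 CPM, ZNF565 at 4.88 and 5.32 CPM and ZNF793 at 5.09 and 7.09 CPM, and these 3 overlapped one another.

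**Figure D1:**
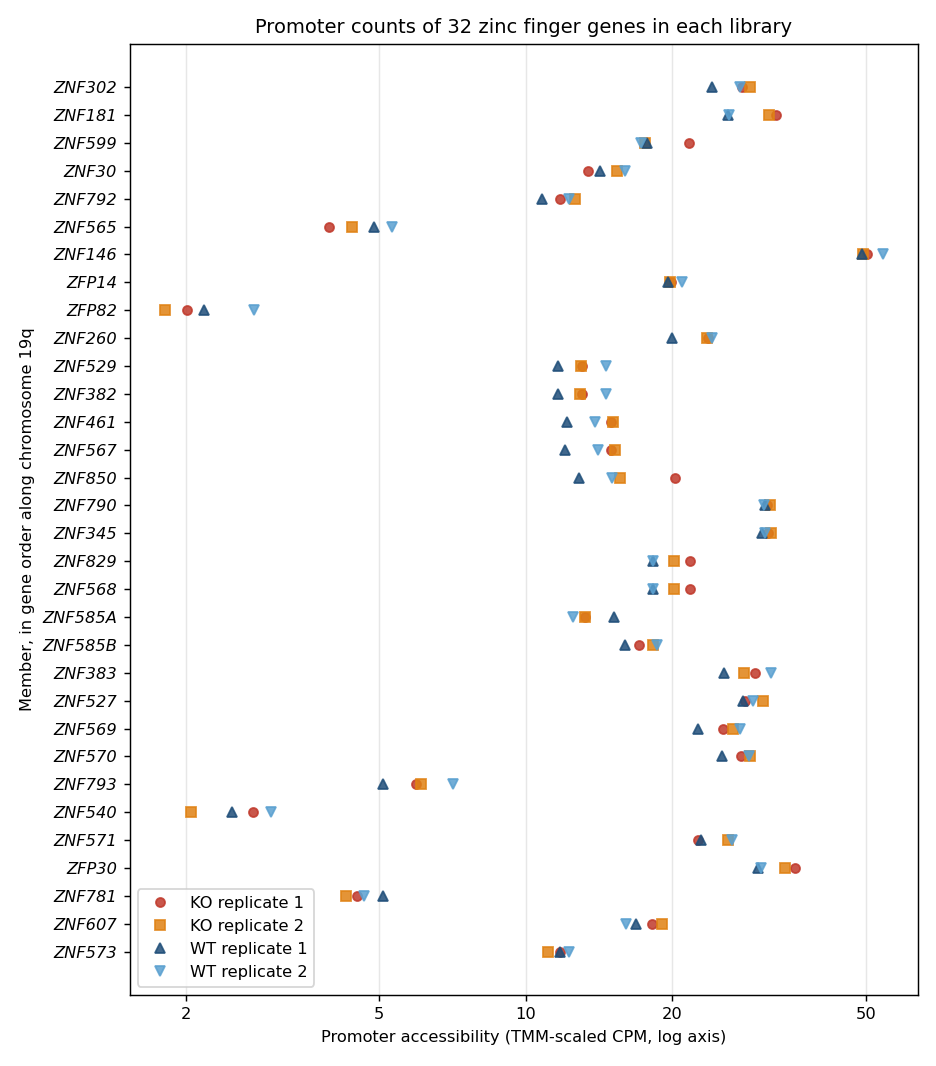
Promoter accessibility of the 32 members, in gene order from top to bottom, in TMM-scaled CPM on a log axis, with 1 symbol for each of the 2 KO and 2 WT libraries. The KO and WT symbols lie apart at ZNF181 and intermingle at most members, and 5 members lie under 10 CPM.

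In KO cells most promoters of this run were measured close to their WT level. ZNF181 was called higher in KO cells, and no member was called lower. That is 3.12% of the members, where 4.45% of all tested promoters were called in either direction and 3.45% were called higher. Over all promoters the calls split into 954 higher and 275 lower, and into 217 and 177 with loess offsets. With 1 call among 32, the share was near that of the background. At an unadjusted p under 0.05 there were 3 members (9.38%), ZNF181, ZNF850 and ZFP30, against 20.3% of all promoters. The members' log2 fold changes, KO over WT, ran from -0.38 to 0.33 with a median of 0.041, and the median of all promoters was -0.017. Of the 32, 19 were above 0 (59.4%), against 46.7% of all promoters. The KO libraries were both higher than the WT libraries at 11 members (34.4%), where 25.2% of all promoters did so. With near-identical rows of members counted once, it was 8 of 28 (28.6%). At a level of at least 10 CPM it was 40.7% of members and 39.5% of all promoters. The KO libraries were both lower at 3 members (9.38%), where 25.4% of all promoters did so, and the remaining 18 members overlapped. This count depended on the level. Under 10 CPM it was 3 of 5 members and 4916 of 11804 promoters, and at a level of at least 10 CPM 0 of 27 members and 2094 of 15843 promoters.

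ZNF181, a KRAB zinc finger gene, was covered by 356 fragments in KO replicate 1, 538 in KO replicate 2, 250 in WT replicate 1 and 236 in WT replicate 2. Scaled, these were 32.7 and 31.5 CPM in KO and 26.0 and 26.1 CPM in WT, so that the groups were well apart and the replicates of each close together. Its mean was 32.1 ± 0.781 CPM over the KO libraries and 26.1 ± 0.124 CPM over the WT libraries (SD, n = 2). The log2 fold change was 0.30 (SE 0.091, 95% interval 0.12 to 0.48, edgeR quasi-likelihood F-test, adjusted p = 0.033). The direction held in every alternative that kept the promoter, but the call was near the threshold. It was lost when any 1 library was left out, with an adjusted p of 0.119 without KO replicate 1, 0.237 without KO replicate 2, 0.086 without WT replicate 1 and 0.146 without WT replicate 2. The adjusted p was 0.902 by the Wald test of DESeq2, 0.443 with total-count scaling, 0.173 with loess offsets, 0.12 with counts thinned to the smallest nuclear total, 0.0808 among promoters with a mean count of at least 50 and 0.0535 with the replicate number as a block.

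ZNF302, the neighbour with the similar window, stood at 27.8 and 28.9 CPM in KO and at 24.1 and 27.6 CPM in WT. Its KO libraries were both above its WT libraries, the nearest by little. The log2 fold change was 0.14 (SE 0.093, adjusted p = 0.389), and it was 0.045 without WT replicate 1 and 0.24 without WT replicate 2. The difference between ZNF181 and ZNF302 in log2 fold change was 0.16 with a combined SE of 0.13, within its error. The paralogues ZNF585A and ZNF585B were on opposite sides of 0, at -0.068 (SE 0.13) and 0.04 (SE 0.11), and their difference was also within its error.

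ZNF850 had the largest log2 fold change of the members, 0.33 (SE 0.12, 95% interval 0.094 to 0.57), with an adjusted p of 0.087 by edgeR, just outside the threshold. It stood at 20.3 and 15.6 CPM in KO and at 12.9 and 15.1 CPM in WT. KO replicate 1 was the high library, KO replicate 2 was close to WT replicate 2, and the log2 fold change was 0.18 without KO replicate 1, 0.55 without KO replicate 2, 0.22 without WT replicate 1 and 0.44 without WT replicate 2. ZFP30, a KRAB gene at the telomeric end, was the third member with an interval that left out 0. It stood at 35.7 and 34.0 CPM in KO and at 30.0 and 30.5 CPM in WT, groups that did not overlap, and its log2 fold change was 0.20 (SE 0.086, adjusted p = 0.162 by edgeR).

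The 4 head-to-head pairs that share their rows gave log2 fold changes between -0.015 and 0.21, none called. ZNF461 and ZNF567 stood at 15.0 and 15.1 CPM (ZNF461) or 15.0 and 15.3 CPM (ZNF567) in KO. In WT they stood at 12.2 and 13.8 CPM or 12.1 and 14.1 CPM. The log2 fold change was 0.21 (SE 0.13) under either name, with an adjusted p of 0.325 or 0.322 by edgeR, and without WT replicate 1 it was 0.12 (ZNF461) or 0.11 (ZNF567). ZNF829 and ZNF568, the latter a KRAB gene whose mouse counterpart silences a placental promoter of Igf2, stood at 21.7 and 20.1 CPM in KO and at 18.3 CPM in both WT libraries. Their log2 fold change was 0.19 (SE 0.11, adjusted p = 0.316 by edgeR). In both of these pairs the KO libraries were above the WT libraries, and the intervals held 0.

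The other pairs were close to 0. ZNF790 stood at 31.3 and 31.7 CPM in KO against 31.0 and 30.9 CPM in WT, giving a log2 change of 0.028 (SE 0.087, adjusted p = 0.885), and ZNF345 gave 0.042 (SE 0.087, adjusted p = 0.822). For ZNF529 the KO values of 13.0 and 13.0 CPM fell between the WT values of 11.6 and 14.6 CPM, and the log2 fold change was -0.011 (SE 0.13, adjusted p = 0.972). ZNF382 shared that row and gave -0.015 (adjusted p = 0.962). ZNF569 and ZNF570 gave 0.065 (SE 0.096, adjusted p = 0.737) and 0.068 (SE 0.092, adjusted p = 0.712), with overlapping groups at each. ZNF146, the most open member, had the narrowest interval: it stood at 50.2 and 49.2 CPM in KO against 49.0 and 54.1 CPM in WT, giving a log2 change of -0.052 (SE 0.072, 95% interval -0.19 to 0.089, adjusted p = 0.716).

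The 5 members under 10 CPM were all below 0, with a median log2 fold change of -0.23. Over all tested promoters of that level the median was also negative, -0.22, and 20.7% were above 0. ZFP82 stood at 2.02 and 1.82 CPM in KO against 2.18 and 2.77 CPM in WT, the lowest log2 fold change of the members at -0.38 (SE 0.31, 95% interval -0.98 to 0.22, adjusted p = 0.50). ZNF565 stood at 3.94 and 4.40 CPM in KO against 4.88 and 5.32 CPM in WT (-0.27, SE 0.22, adjusted p = 0.491). ZNF781 stood at 4.49 and 4.28 CPM in KO against 5.09 and 4.65 CPM in WT (-0.16, SE 0.22, adjusted p = 0.714). At these 3 promoters both KO libraries were below both WT libraries, on 21 to 75 fragments a library. ZNF540 stood at 2.75 and 2.05 CPM in KO against 2.49 and 2.99 CPM in WT (-0.23, SE 0.29, adjusted p = 0.684), and ZNF793 was at -0.0043 (SE 0.19, adjusted p = 0.994). The groups overlapped at both, and the intervals of all 5 held 0. With loess offsets, which take out the trend of the change with the level, ZNF540, ZNF781 and ZNF793 came to lie above 0.

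The other members were all of at least 10 CPM and not called. ZNF599 stood at 21.6 and 17.6 CPM in KO against 17.8 and 17.3 CPM in WT, giving a log2 change of 0.14 (SE 0.11, adjusted p = 0.501), with KO replicate 1 alone above the rest. ZNF607 stood at 18.2 and 19.1 CPM in KO against 16.8 and 16.1 CPM in WT, 0.18 (SE 0.11, adjusted p = 0.352), without overlap. ZNF260, a gene of fingers without KRAB, was at 0.10 (SE 0.10, adjusted p = 0.589), its KO values of 23.7 and 23.6 CPM lying between the WT values of 19.9 and 24.1 CPM.

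ZNF792 (0.088), ZNF527 (0.051), ZNF383 (0.00086), ZNF571 (-0.0066), ZFP14 (-0.029), ZNF30 (-0.05) and ZNF573 (-0.081, the lowest log2 fold change of the members of at least 10 CPM) had adjusted p-values of 0.757 to 0.998. At ZNF573 the KO values of 11.7 and 11.1 CPM overlapped with the WT values of 11.7 and 12.3 CPM, and at ZNF30 those of 13.4 and 15.4 CPM overlapped with 14.2 and 16.0 CPM in WT. Over the 27 members of at least 10 CPM, the 95% intervals of the edgeR fit reached from -0.35 to 0.57. For the 5 lower members they reached from -0.98 to 0.37. Each interval holds for its promoter alone, and none covers the choice of scaling or test.

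**Figure D2:**
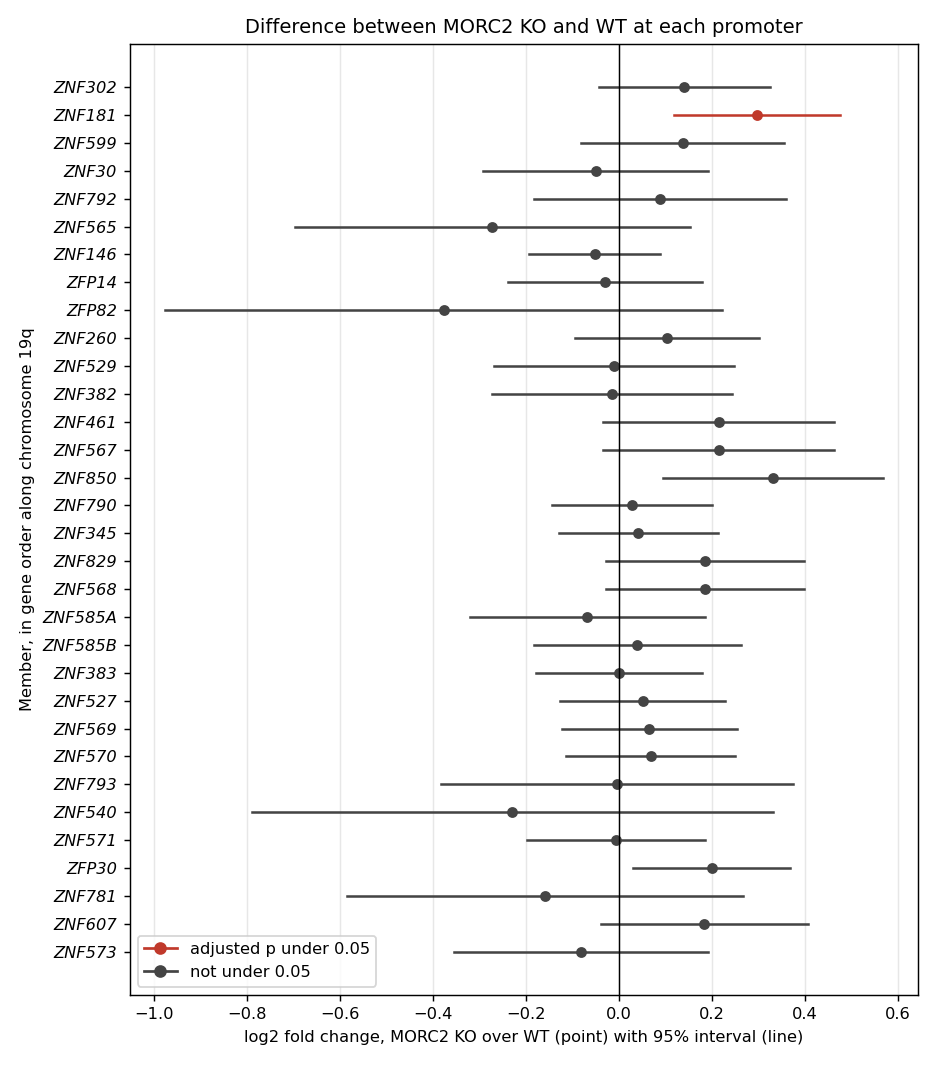
Log2 fold change of each member, KO over WT, from the edgeR fit (points) with its 95% interval (lines), in gene order from top to bottom. Of the 32 intervals, 29 hold 0, those of ZNF181, ZNF850 and ZFP30 lie above it, and only ZNF181 (red) had an adjusted p under 0.05.

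The members were also divided by position along the run. The 5 members at the centromeric end, ZNF302, ZNF181, ZNF599, ZNF30 and ZNF792, had a median log2 fold change of 0.14, with ZNF181 among them, and the other 27 had a median of 0.028. All 5 at the centromeric end were of at least 10 CPM, as were 22 of the other 27, so that position and level cannot be told apart. This split was chosen after the values were seen, and it was not tested.

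The WT libraries differed from each other by more than the groups did. Summed over the 32 members, the level was 631.6 and 628.8 CPM in KO replicates 1 and 2, while WT replicates 1 and 2 held 573.5 and 625.9 CPM. KO exceeded WT by 5.09% in the mean, while WT replicate 2 exceeded WT replicate 1 by 9.12%. With the 4 pairs of near-identical rows counted once, 28 promoters remained and these figures were 4.79% and 9.35%. WT replicate 1 was the lowest of the 4 libraries at 19 of 32 members, and it was below WT replicate 2 at 25. Among members of at least 10 CPM it was the lowest at 18 of 27, where it was the lowest at 26.5% of all promoters of that level.

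The members' median log2 fold change depended on this library. It was -0.027 without WT replicate 1 and 0.15 without WT replicate 2. At members of at least 10 CPM, the median deviation from the mean of the 4 libraries was -0.11 in WT replicate 1 on the log2 scale, against 0.004 and 0.049 in KO replicates 1 and 2 and 0.028 in WT replicate 2. The low value of WT replicate 1 also appeared at other chromosome 19 zinc finger promoters of that level (-0.093), less so at the other promoters of the interval (-0.036) and over all promoters (-0.021).

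**Figure D3:**
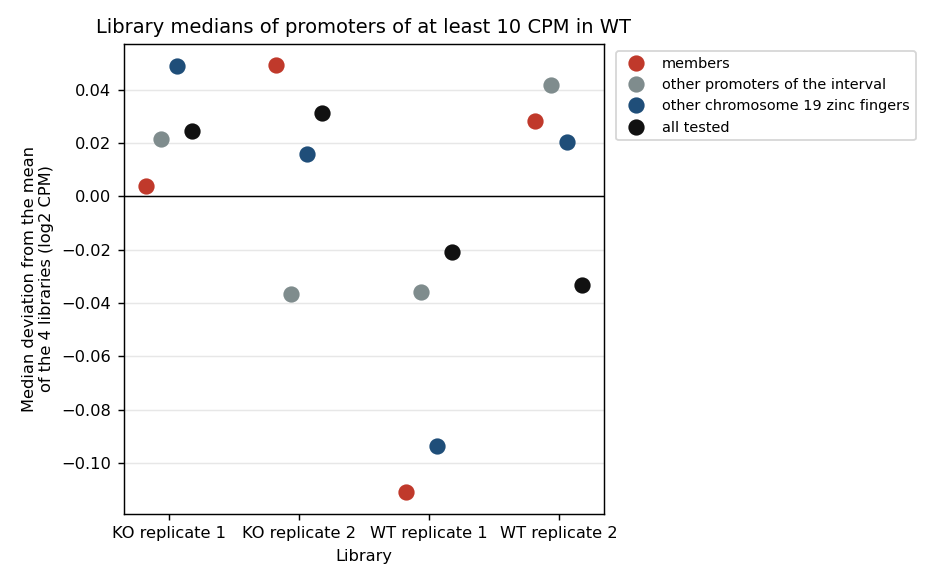
Median deviation of promoters of at least 10 CPM in WT from their mean over the 4 libraries, on the log2 scale, for each library (horizontal axis) and set (colour). WT replicate 1 lies lowest for the members (-0.11) and for the other chromosome 19 zinc finger genes (-0.093).

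The promoters that lie between ZNF302 and ZNF573 without being members give the local background. There were 88 of them, 86 were tested, and 0 were called by edgeR, although 22 (25.6%) had an unadjusted p under 0.05 and DESeq2 also called 0. Their median log2 fold change was -0.13. They include LOC728485, ZNF30-AS1 and ZNF793-AS1, with rows near-identical to those of members, so this background is not wholly separate. Of the 86, 39 were under 10 CPM, with a median of -0.22, as for all promoters of that level. The 47 of at least 10 CPM had a median of -0.035, where all promoters of that level had 0.055, and with loess offsets the median of the 86 was -0.058. Members of at least 10 CPM had a median of 0.065, with 19 of 27 above 0 (70.4%), close to all promoters of that level (66.1% above 0). Zinc finger genes of the interval that were not on the list, with the antisense and divergent transcripts named after members, numbered 10, with a median of 0.088. Among them ZNF420 was at 0.21 (adjusted p = 0.136) and ZNF875 at -0.81 (adjusted p = 0.0957).

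The other 230 tested zinc finger promoters of chromosome 19 had a median log2 fold change of -0.0016. Of these, 13 were called higher (5.65%) and 6 lower. At a level of at least 10 CPM, 144 had a median of 0.079. Whether the members differ from them was not tested.

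**Figure D4:**
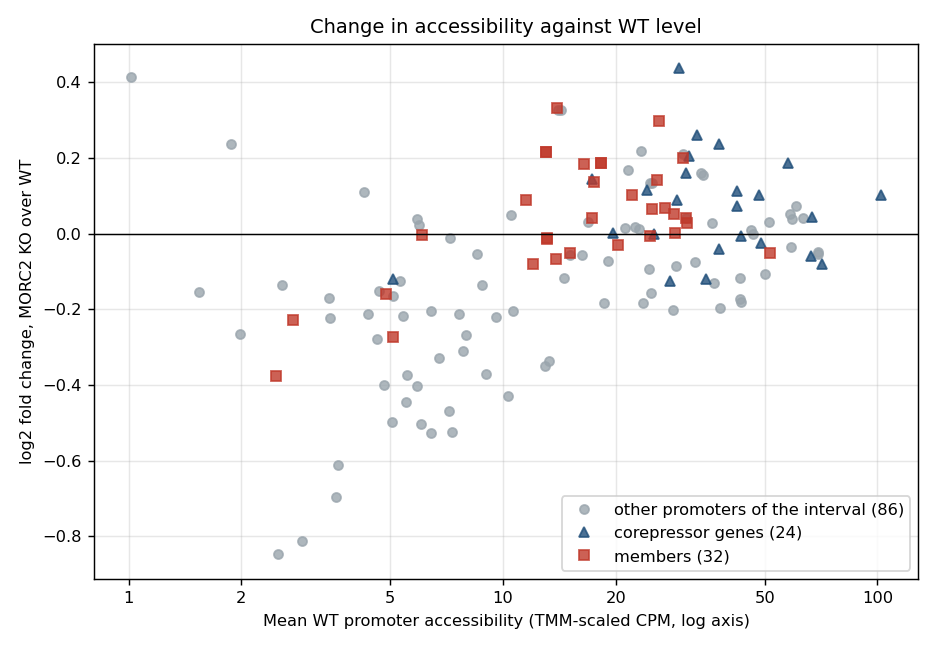
Log2 fold change, KO over WT, against the mean WT level in TMM-scaled CPM on a log axis, for the 32 members (squares), the 86 other tested promoters of the interval (circles) and 24 corepressor genes (triangles). Promoters under 10 CPM lie mostly below 0 in both the interval and the members, and members of higher level lie on either side of 0.

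The genes through which KRAB zinc finger proteins act were taken as a list of 24. Of these, 2 were called, both higher in KO, and 15 (62.5%) were above 0, with a median of 0.081. At least 10 CPM was reached by 23 of the 24, and of all promoters of that level 6.53% were called and 66.1% were above 0, so that the list was near the background. TASOR, the scaffold of the HUSH complex, stood at 40.4 and 39.8 CPM in KO and at 29.6 and 29.6 CPM in WT, giving a log2 change of 0.44 (SE 0.084, adjusted p = 0.000124 by edgeR). PPHLN1, another HUSH subunit, stood at 37.6 and 41.2 CPM in KO and at 35.3 and 30.8 CPM in WT, 0.26 with an adjusted p of 0.0394. The call of PPHLN1 was lost without KO replicate 2 (adjusted p = 0.542) and without WT replicate 2 (adjusted p = 0.421), while that of TASOR was kept without any 1 library and lost with DESeq2 (adjusted p = 0.278). MPHOSPH8, the chromodomain subunit, was at 0.20 (adjusted p = 0.141), and CBX1, an HP1 protein, at 0.24 (adjusted p = 0.0508). TRIM28, the corepressor that KRAB domains bind, was at -0.026 (adjusted p = 0.872), SETDB1 at -0.0063 (adjusted p = 0.972), and ZNF274, a KRAB zinc finger protein known to bind the 3′ ends of zinc finger genes, at -0.12 (adjusted p = 0.421).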

How the data were processed

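Reads were trimmed with Trim Galore and aligned with bowtie2 to T2T-CHM13. Improper and poorly mapping pairs and duplicates (Picard) were removed. The authors deposited raw fragment counts per promoter, 1 row per gene identifier, without normalisation. For its own tests the study counted fragments by midpoint in fixed windows and defined promoters as windows around start sites. Whether the promoter table was counted likewise is not given in the sources used here. The list of WT peaks was not used, because the gene table available (GRCh38.p14) gives names, gene order and promoter sequences but no positions on T2T-CHM13.

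Counts were filtered with filterByExpr, scaled by TMM (19 rows lacked a chromosome) and fitted in edgeR 4.0.16 under R 4.3.3 (legacy quasi-likelihood F-test) over all 27647 promoters, without covariates. Two-sided p-values were corrected after Benjamini and Hochberg over all of them, and a promoter was called at an adjusted p under 0.05. The biological coefficient of variation was 4.24%. Standard errors were derived from the F statistics. Simulated data with known fold changes were used to check the fits, not the standard errors. Alternatives used limma 3.58.1 and DESeq2 1.42.0. An exact permutation test of 2 against 2 could not fall under 0.05 and was not run. Same-numbered replicates were not paired: their deviations correlated at 0.0177 over 19833 promoters.

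Members, lists and tests were chosen with earlier results of these data known. Members given in full are those called, the 5 highest and 5 lowest by log2 fold change, the 3 most and 3 least open in WT, the one just outside the threshold, and those sharing a row. The others are added for completeness. Rows differing by under 25% in every library count as similar. Counts of 21 to 840 fragments lie behind each member's value, and errors cover the 4 libraries only.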

Additional observations from a re-analysis of the deposited data

How the results depend on the processing

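The number of members called ran from 0 to 3 over the alternatives. No member was called with total-count scaling, loess offsets, a mean count of at least 50, the Wald test of DESeq2 with or without its independent filter (both gave the same values), the replicate block, thinned counts, or without any 1 library (0 in each). It was also 0 with similar neighbours counted once, where 20 members were tested and the row of ZNF181, close in level to that of ZNF302, was dropped by construction. Interval offsets shift each library, within the interval, by the median deviation of the other interval promoters from that of all promoters. With them 3 members were called (ZNF181, ZNF850 and ZFP30), a share of 9.38%, and an adjusted p under 0.1 gave 2. The count over all promoters fell from 1229 (954 higher, 275 lower) to 20 (19 and 1) with total-count scaling, 394 (217 and 177) with loess offsets, 787 with a mean count of at least 50, 7 with DESeq2, 717 with limma-trend, 524 with thinned counts and 765 with the replicate block. It was 2249 at an adjusted p under 0.1 and 41 to 1637 with 1 library left out. Replicate numbers did not pair the samples, and under the replicate block the adjusted p of ZNF181 was 0.0535. A group left with 1 library was assumed to vary like the other. The cause of these differences was not tested.

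Other promoters of the interval had 4 calls with interval offsets, 5 at an adjusted p under 0.1 and 0 to 3 with 1 library left out, 1 of them without WT replicate 2. The corepressor list had 0 calls with total-count scaling and DESeq2, 1 with loess offsets, a mean count of at least 50, the edgeR 4 fit, limma-trend, the replicate block and thinned counts, 4 at an adjusted p under 0.1 and 1 to 3 with 1 library left out. The call of MORC2 was lost with total-count scaling (log2 fold change 0.57, adjusted p = 0.24 by edgeR). It was also lost by the Wald test of DESeq2 (log2 fold change 0.44, adjusted p = 0.363). The log2 fold change of MORC2 ran from 0.33 to 0.54 with 1 library left out.

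Total-count scaling raised the median over all promoters by 0.14 on the log2 scale, that of the members to 0.17, of the other interval promoters to 0.015 and of the other chromosome 19 zinc finger genes to 0.14. Interval offsets gave medians of 0.13 for the members and -0.041 for the other interval promoters, and loess offsets -0.058 for the latter. With 1 library left out, the medians ran from -0.027 to 0.15 (members), -0.13 to -0.056 (other interval promoters) and -0.025 to 0.073 (other chromosome 19 zinc finger genes).

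Some members that were not called changed sign. With total-count scaling these were ZNF573 (0.059), ZNF146 (0.081), ZNF30 (0.083), ZNF382 (0.12), ZNF529 (0.13) and ZNF793 (0.14). With interval offsets they were ZNF573 (0.0056), ZNF146 (0.034), ZNF30 (0.037), ZNF382 (0.072), ZNF529 (0.076) and ZNF793 (0.083). With loess offsets they were ZNF540 (0.042), ZNF781 (0.050), ZNF345 (-0.012), ZNF790 (-0.025), ZNF382 (0.010), ZNF529 (0.014) and ZNF793 (0.16). With thinned counts they were ZNF781 (0.047), ZNF790 (-0.00057), ZNF793 (0.0068), ZNF527 (-0.027) and ZNF792 (-0.089). The remainder were ZNF790 with a mean count of at least 50 (-0.0068), ZNF529 with similar neighbours counted once (0.00044), and ZNF793 with DESeq2 size factors (1.27e-05) and limma-trend (0.0050). With 1 library left out, the ranges that crossed 0 were -0.39 to 0.015 (ZNF540), -0.12 to 0.018 (ZNF146), -0.16 to 0.047 (ZNF30), -0.17 to 0.16 (ZNF382), -0.17 to 0.16 (ZNF529), -0.23 to 0.25 (ZNF793), -0.032 to 0.24 (ZNF260), -0.013 to 0.12 (ZNF527), -0.076 to 0.22 (ZNF569), -0.023 to 0.16 (ZNF570), -0.067 to 0.15 (ZNF585B) and -0.0040 to 0.18 (ZNF792). Over the members given in full, 364 of the values under the other settings kept their direction and their side of the threshold, and 84 did so with 1 library left out.

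With 2 libraries a group, the intervals given hold for the edgeR fit and for each promoter alone. Those of the members under 10 CPM, which rest on the fewest fragments, are the widest.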

Other observations

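The members whose promoter window holds TTCCCAG, a string chosen after sequences and values had been seen, were ZNF302, ZNF181, ZNF260, ZNF461, ZNF567, ZNF850, ZNF790, ZNF345, ZNF568, ZNF383, ZNF569 and ZNF573. These 12 had a median log2 fold change of 0.12 (KO over WT), and 11 of them (91.67%) were above 0, ZNF573 being the exception. Among promoters of at least 10 CPM with the string, 70.75% of all and 75.68% of other chromosome 19 zinc fingers were above 0. Without it, 66.53% of all were. ZNF383 was at only 0.00086, and with loess offsets ZNF790 (-0.025) and ZNF345 (-0.012) fell below 0. Among the 12, ZNF461 and ZNF567 had near-identical rows, as did ZNF790 and ZNF345, so some measurements count under both names. The other 12 members of at least 10 CPM with a sequence had a median of 0.06, with 8 above 0. Among other chromosome 19 zinc finger promoters of at least 10 CPM, the 37 with the string had a median of 0.17 and 6 were called higher (16.2%), and the 90 without it had a median of 0.021 with 5 called higher (5.56%). Over all tested promoters of at least 10 CPM, the 1347 with it had a median of 0.069 and 8.39% were called higher, against 0.056 and 6.20% of the 11007 without it. The median WT level was 23.6 CPM in the members with the string and 17.4 CPM in those without. ZNF568 and ZNF829, whose counts were the same in every library, stand on opposite sides of this split, as do ZNF569 and ZNF570, so these sets are not separate measurements. The difference was not tested.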
